A study of Zea mays with 18 samples.

Results

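Expression values of 6 maize genes that control the shoot meristem are described here: kn1 (knotted1, Zm00001d033859), td1 (thick tassel dwarf1, Zm00001d014793), fea2 (fasciated ear2, Zm00001d051012), fea3 (fasciated ear3, Zm00001d040130), fea4 (fasciated ear4, Zm00001d037317) and ct2 (compact plant2, Zm00001d027886). They were taken by identifier, and all 6 were found among the 43484 gene models of the table, which lists 45260 features. The names come from the list that defined the 6 genes, since the table itself gives identifiers only. The plants were seedlings of the inbred line B73, germinated for 3 days in darkness and then grown in a nutrient solution. EBL (epibrassinolide, a brassinosteroid, one of the steroid hormones of plants) was supplied at 1 nM for 48 h to one set of plants, and the other set served as controls. The sources used here do not say what the control solution held in place of EBL. From each set came primary roots, shoots (a dissected part that includes stem, apex and coleoptile) and the first leaf, so that there were 6 groups of 3 biological replicates, 18 samples in all.

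Shoot meristems keep a pool of undifferentiated cells at the tip of the plant while leaves form at its flanks. KN1 is a homeodomain transcription factor of the KNOX class that is made in the meristem and young stem and is switched off where a leaf starts, and it keeps meristem cells from differentiating. The CLAVATA pathway limits the size of the meristem: small secreted peptides are sensed by leucine-rich repeat receptors, and loss of a receptor gives enlarged, flattened (fasciated) ears. Among the receptors TD1 is the maize relative of the Arabidopsis receptor kinase CLAVATA1, FEA2 is the relative of the kinase-less receptor CLAVATA2, and FEA3 is a further leucine-rich repeat receptor of the meristem. CT2 is the alpha subunit of a heterotrimeric G protein and acts with FEA2, and FEA4 is a bZIP transcription factor related to Arabidopsis PERIANTHIA that also restricts meristem size. In rice, the KN1 relative OSH1 is known to activate genes for brassinosteroid breakdown.

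The values are RPKM (reads scaled to the length of a gene and to the size of a library), 1 per gene and group as the authors deposited them. No replicate error can be attached to a value, no difference between 2 columns could be tested, and the number of reads behind a value is unknown. The effect of EBL is given as log2((EBL + 1)/(control + 1)), the difference between organs in the same way, and a gene is counted as higher or lower past 2-fold, a size of at least 1. The pseudocount of 1 understates folds of genes with low values, and plain ratios of the RPKM values are printed beside it. Shares and medians over all gene models cover the gene models compared. These were above 0 in both columns and reached a minimum of 1 RPKM in at least 1 of all columns. They numbered 25389 to 25741 by comparison, and 25188 to 25213 where EBL effects were compared between organs. The columns summed to between 934116 and 1599725 RPKM, highest in EBL leaves, and features other than gene models took 5.66% to 9.82% of the sum in roots and shoots and 21.4% to 21.6% in leaves. The material holds many cell types, so fewer cells of a type and less RNA per cell cannot be told apart. Marker genes of leaf and root could not be used to check the organs, because 0 of 12 marker symbols could be paired with an identifier of the table.

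The 6 genes fell into different patterns over the organs. kn1 was far higher in shoots than elsewhere, fea3 was highest there, td1 was lowest there, and fea2 and ct2 were alike in roots and shoots and lower in leaves. fea4 was low in every organ, at most 1.03 RPKM. In control shoots, where the levels are per length and can be compared between genes, the order was ct2 at 26.3 RPKM, fea3 at 23.0, kn1 at 12.0, td1 at 5.77, fea2 at 4.004 and fea4 at 0.976. In control leaves the order was td1 at 10.2 RPKM, ct2 at 9.49, fea3 at 3.23, fea2 at 1.34 and kn1 at 0.0755, with fea4 listed at 0.

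**Figure D1:**
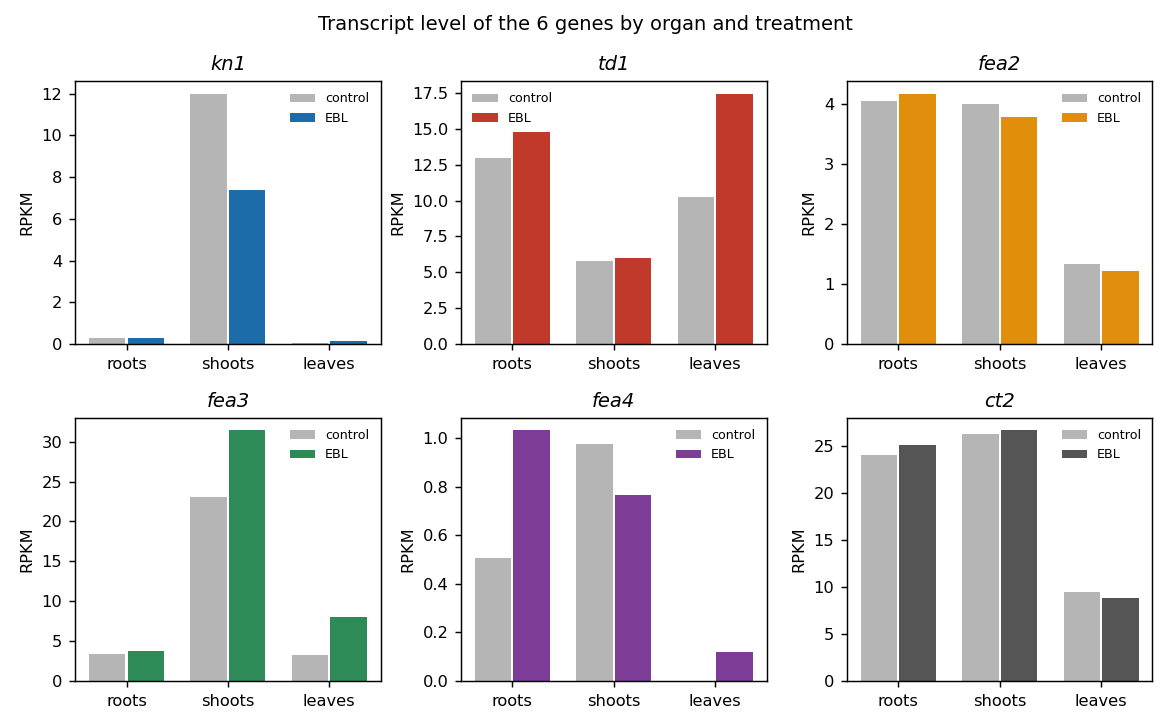
RPKM of each gene (vertical axes, each starting at 0 and with its own scale) in roots, shoots and leaves, with grey bars for control and coloured bars for EBL; each bar is 1 value deposited for a group, without error. kn1 reaches 12.0 RPKM in control shoots and 7.40 in EBL shoots and at most 0.302 elsewhere, and fea3 and td1 have taller EBL than control bars in leaves.

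kn1, the meristem factor, stood at 12.0 RPKM in control shoots and 7.40 in EBL shoots. Its root values were 0.302 RPKM without and 0.299 with EBL, and its leaf values 0.0755 and 0.164. Every shoot value was thus far above every root and leaf value, while the root and leaf values were near 0. The plain ratio of shoots to roots was 39.7 in the control columns and 24.8 in the EBL columns. On the log2(RPKM + 1) scale shoots exceeded roots by 3.32 in control and by 2.69 in EBL. In the control columns 1.88% of all gene models had a difference at least as high, and in the EBL columns 4.02%. Against leaves the differences were 3.60 and 2.85. kn1 met the minimum of 1 RPKM through its shoot columns alone. Its excess in shoots is thus tied to that filter, and the shares given here are no independent sign of it.

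EBL shoots had less kn1 than control shoots, at a plain ratio of 0.616 and an effect of -0.63 (log2). The effect did not pass 2-fold, and 1.61% of gene models in shoots had one at least as low. It lay between -0.74 and -0.58 under the 8 other settings. In roots the effect of EBL on kn1 was -0.004. In leaves the plain ratio was 2.18, but it rests on values of 0.0755 and 0.164 RPKM, and with the pseudocount the effect was 0.11. The effect on kn1 was lower in shoots than in leaves by 0.75 and lower than in roots by 0.63, differences that were not tested. All root and leaf values of kn1 were below the pseudocount of 1, which holds the effects there near 0. These differences therefore mainly repeat the shoot effect and are no sign of a response particular to shoots.

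Among the receptors, in the values as deposited, fea3 had the largest differences between shoots and the other organs. It also had the largest EBL effects in shoots and leaves. Between roots and leaves fea2 differed more, and in roots td1 had the larger EBL effect. Its shoot values were 23.0 RPKM in control and 31.4 in EBL, its root values 3.34 and 3.79, and its leaf values 3.23 and 7.97. Both shoot values were above all the others, and the EBL value was the higher one in each organ. Shoots exceeded roots by 2.47 (log2) in control and 2.76 in EBL, and they exceeded leaves by 2.51 and 1.85. Control roots and control leaves differed by 0.04 only, whereas in the EBL columns leaves were higher than roots by 0.91, so the order of these organs differed between the treatments. After median-ratio scaling roots were below leaves in control too, by 0.56.

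In leaves the EBL effect on fea3 was 1.08 (log2), a plain ratio of 2.47, and with the pseudocount of 1 this was the only effect of EBL past 2-fold among the 6 genes, of which fea4 could not be compared in leaves. In leaves 4.83% of gene models were at least 2-fold higher and 3.97% had an effect at least as high as that of fea3. When each column was rescaled to an equal total over gene models, the effect was 0.80, and with a pseudocount of 2 it was 0.93. That rescaling moved the median over all gene models from -0.01 to -0.23, and relative to the median fea3 was at 1.10 as deposited and at 1.03 after scaling. In shoots the effect was 0.43, a plain ratio of 1.37, with 3.86% of gene models at least as high, and in roots it was 0.14. The effect in leaves thus exceeded that in shoots by 0.65 and that in roots by 0.94, differences equalled in size by 14.0% and 8.86% of gene models and not tested.

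td1, the CLAVATA1 relative, had root values of 12.97 RPKM in control and 14.8 in EBL, shoot values of 5.77 and 6.04, and leaf values of 10.2 and 17.4. Shoots, the organ that includes the apex, had the lowest values, and both were below every root and leaf value. Shoots were lower than roots by 1.05 (log2) in control and 1.16 in EBL. The control value fell short of 2-fold with a pseudocount of 2 (-0.95), after median-ratio scaling (-0.93) and, narrowly, after rescaling to an equal total (-0.99). Roots were the highest organ in control and leaves in EBL, an order that turned with the scaling: after median-ratio scaling leaves were above roots in the control columns too, by 0.39, and after rescaling to an equal total over gene models roots were above leaves in the EBL columns, by 0.25. EBL leaves were above control leaves by 0.72 (log2), a plain ratio of 1.71, with 9.88% of gene models at least as high. The effects in roots and shoots were 0.17 and 0.06, and the latter was -0.04 under the rescaling to an equal total.

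**Figure D2:**
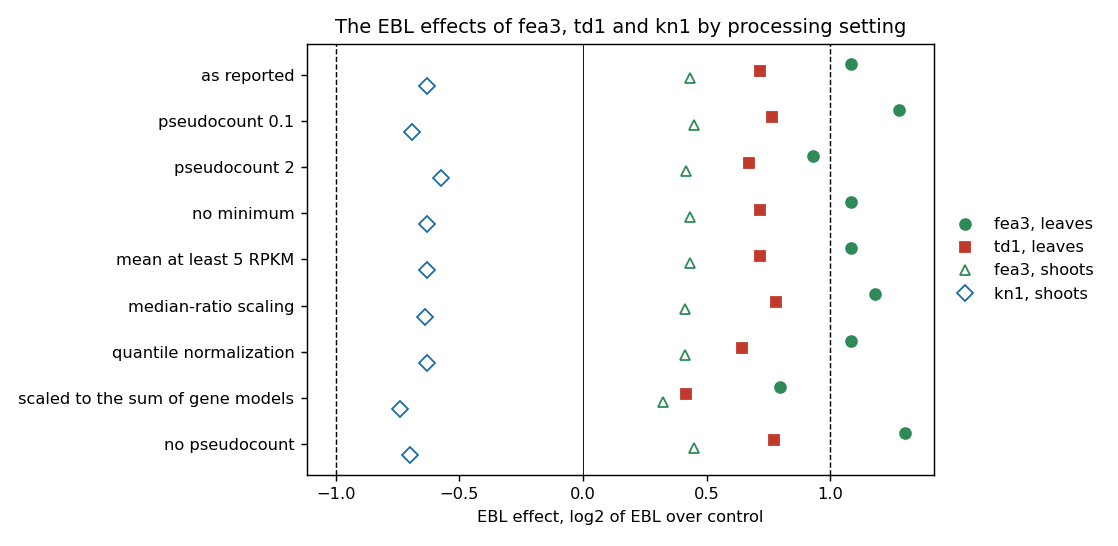
EBL effects (horizontal, log2 of EBL over control) of fea3 and td1 in leaves (filled symbols) and of fea3 and kn1 in shoots (open symbols) under each processing setting (rows), with dashed lines at 2-fold. fea3 in leaves lies between 0.80 and 1.30 and falls short of 2-fold in 2 rows, and kn1 in shoots lies between -0.74 and -0.58 in all.

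fea2, the CLAVATA2 relative, and ct2, the G protein subunit, had flat values within an organ. fea2 had root values of 4.05 RPKM in control and 4.17 in EBL, shoot values of 4.004 and 3.78 and leaf values of 1.34 and 1.22. For ct2 the root values were 24.1 and 25.2 RPKM, the shoot values 26.3 and 26.7 and the leaf values 9.49 and 8.88. For both genes the leaf values were below all root and shoot values, and roots and shoots differed by at most 0.12 (log2). The EBL effects lay between -0.08 and 0.04 (log2) for fea2 and between -0.09 and 0.06 for ct2. Shoots exceeded leaves by 1.09 in control and 1.10 in EBL for fea2, and by 1.38 and 1.49 for ct2. The median over all gene models for shoots against leaves was 0.46 in control and 0.49 in EBL, so that fea2 stood 0.64 and 0.62 above it and ct2 0.92 and 1.00. Under median-ratio scaling both genes were still higher in shoots than in leaves, by 0.65 for fea2 and 0.76 for ct2 in control, short of 2-fold.

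Without and with EBL, the ratio of ct2 to fea2 came to 5.95 and 6.03 for roots, to 6.57 and 7.07 for shoots, and to 7.06 and 7.26 for leaves. These 6 ratios lay close together although both genes were lower in leaves. For this, 25002 gene models above 0 in every column and at 1 RPKM or more in at least 1 were used. Of these, 196 (0.784%) had a ratio to fea2 with a narrower range over the 6 columns than ct2. This pair was singled out after its values were seen. Between kn1 and fea3, which were both highest in shoots, the ratio was less even. fea3 was 1.92 times kn1 in control shoots and 4.25 times in EBL shoots. Over the 6 columns this ratio ran from 1.92 to 48.5, with kn1 near 0 in roots and leaves. This pair was likewise taken up after its values were seen. No share of gene models is set beside its range, because kn1 met the minimum through its shoot columns alone. Gene models high in shoots would come close to kn1 for that reason.

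fea4, the bZIP factor, had root values of 0.508 RPKM in control and 1.03 in EBL and shoot values of 0.976 and 0.766, and it was listed at 0 in control leaves and at 0.118 in EBL leaves. The root and shoot values overlapped, and the leaf values were below them. It entered the comparisons through the EBL root column alone, the only one to reach 1 RPKM, so its effect of 0.43 (log2) in roots is no independent sign of a difference. The plain ratio there was 2.03. In shoots the effect was -0.16, and in leaves it was not computed.

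**Figure D3:**
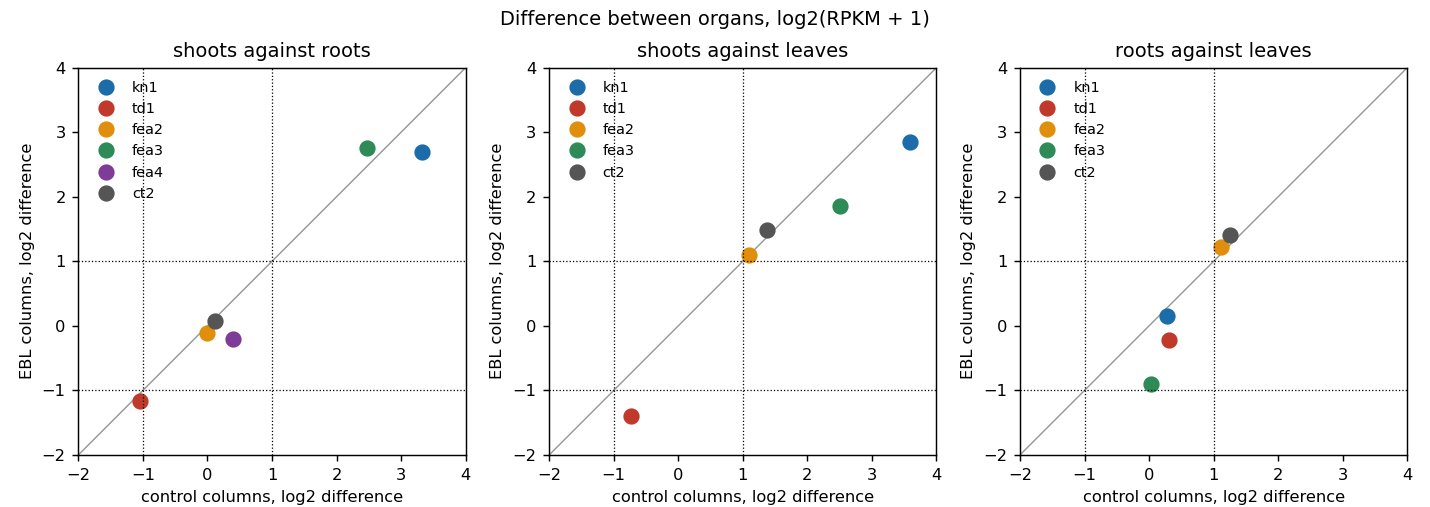
Difference between 2 organs on the log2(RPKM + 1) scale, in the control columns (horizontal) and the EBL columns (vertical), 1 point per gene, with dotted lines at 2-fold and a line of equality; fea4 is shown for shoots against roots only. kn1 and fea3 lie beyond 2-fold on the shoot side in both comparisons with shoots, and fea3 drops to -0.91 in the EBL columns of roots against leaves.

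Counted by organ, 3 of 6 genes differed at least 2-fold between shoots and roots in the control columns, kn1 and fea3 higher and td1 lower in shoots, and the same 3 did so in the EBL columns. Since kn1 met the minimum through its shoot columns alone, its place in the counts with shoots is tied to the filter. The control count was 2, without td1, in the 3 settings named above for that gene. Over all gene models compared, 26.4% in control and 27.6% in EBL passed 2-fold in either direction. Between shoots and leaves 4 of 5 genes compared passed 2-fold in control, where 45.0% of gene models passed it in either direction. All 4 genes were higher in shoots. In the EBL columns 5 of 6 did, with the same 4 higher and td1 lower in shoots, against 49.8% of gene models in either direction. Whether td1 passed depended on the scaling: in control it was lower in shoots by 1.32 after median-ratio scaling and by 1.21 after quantile normalization, where fea2 and ct2 fell short and the count was 3, and in EBL it was at -0.98 after rescaling to an equal total. Between roots and leaves 2 of 5 genes passed 2-fold in control and 2 of 6 in EBL, fea2 and ct2 each time, both higher in roots. Over all gene models 52.9% and 58.8% passed it in either direction, and shares for the higher direction alone were not computed. Without fea4, the median of the other 5 genes for shoots against roots was 0.12 in control and 0.08 in EBL, and that of all gene models -0.07 and -0.09.

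**Figure D4:**
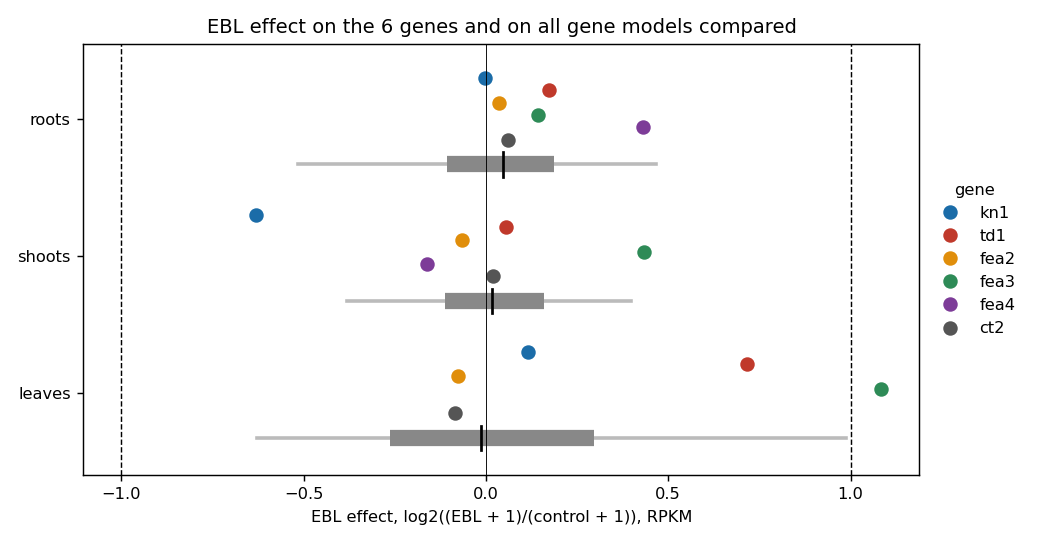
Effect of EBL on each gene (points) on the log2 scale with a pseudocount of 1, by organ; below the points of an organ the thin bar spans the 5th to 95th percentile of all gene models compared, the thick bar the middle quartiles and the tick the median, and dashed lines mark 2-fold. fea3 in leaves at 1.08 is the only point past 2-fold, and kn1 in shoots at -0.63 and fea3 in shoots at 0.43 lie outside the thin bar of their organ.

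Counted by treatment, 0 of 6 genes passed 2-fold in roots, where 2.21% of gene models did, 0 of 6 in shoots, where 0.563% did, and 1 of 5 in leaves, where 5.77% did. Without fea4, which met the minimum through its EBL root value alone, the other 5 genes had median effects of 0.06 for roots, 0.02 for shoots and 0.11 for leaves, beside medians of 0.05, 0.02 and -0.01 over all gene models. The middle 90% of gene models had effects from -0.52 to 0.47 in roots, from -0.38 to 0.40 in shoots and from -0.63 to 0.99 in leaves. By that measure kn1 in shoots lay below the range, fea3 lay above it in shoots and leaves, and the other effects lay within it.

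A common effect of EBL was looked for over the organs by an exact sign-flip permutation test, two-sided, which takes each organ as a pair. The organs of a treatment came from the same set of plants, so the 3 pairs are not independent. fea4 was left out, since its root effect is tied to the filter. Of the 5 genes tested, td1 and fea3 had the higher value in EBL in 3 of 3 organs, with mean effects of 0.32 and 0.55 (log2). The shoot effect of td1 was 0.06, and -0.04 after rescaling to an equal total. How many of all gene models were higher in EBL in 3 of 3 organs was not computed. For td1 and fea3 the exact permutation p was 0.25, which is the smallest that 3 organs allow, so that this design cannot reach 0.05. For kn1 the mean effect was -0.17 (exact permutation p = 0.75), for fea2 -0.04 (0.5) and for ct2 -0.002 (1).

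Ratios of genes within a column are not changed when that column is multiplied by a single factor, as in the rescaling to an equal total and in median-ratio scaling; quantile normalization does change them. Relative to ct2, fea3 stood at 0.340 in control leaves and 0.898 in EBL leaves, 2.64 times as high, and td1 at 1.08 and 1.96, 1.82 times as high. In the same columns fea2 stood at 0.142 and 0.138 of ct2. In shoots kn1 stood at 0.456 of ct2 in control and 0.277 in EBL, and fea3 at 0.875 and 1.18. The order of kn1, td1, fea2 and fea3 relative to ct2 was the same in the control and EBL columns of each organ.

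**Figure D5:**
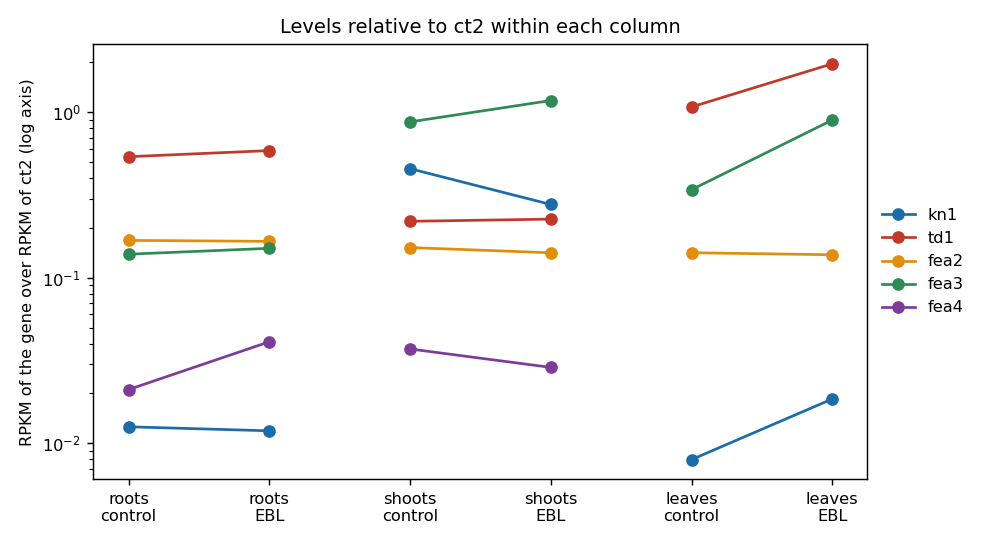
RPKM of each gene over the RPKM of ct2 in the same column (vertical, log axis), for the control and EBL columns of each organ, joined by a line within an organ; fea4 is left out in leaves, where its control value is listed at 0. fea2 stays between 0.138 and 0.168 in every column, while fea3 in leaves goes from 0.340 to 0.898 and kn1 in shoots from 0.456 to 0.277.

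The gene models with the pattern most like each gene were found over the 6 columns among 26151 others, by the distance between log2(RPKM + 1) values centred on their means, and are given by identifier only. Nearest to kn1 was Zm00001d013719, at a distance of 0.24, with 10.5 RPKM in control shoots and 7.70 in EBL shoots and at most 0.331 in roots and leaves. The next was Zm00001d025670, at 0.42, with 19.9 and 17.6 RPKM in shoots. Nearest to fea3 was Zm00001d013221, at a distance of 0.25, with 62.2 and 90.5 RPKM in shoots and 10.0 and 25.1 in leaves, and then Zm00001d052133, at 0.36. For td1 these were Zm00001d017684 (0.16) and Zm00001d023569 (0.16), for fea2 Zm00001d003685 (0.05) and Zm00001d001470 (0.08), for ct2 Zm00001d021522 (0.05) and Zm00001d039154 (0.08), and for fea4 Zm00001d049241 (0.09) and Zm00001d039521 (0.15). The columns of an organ share their organ, so a small distance describes mainly a like order of 3 organs. Ranked by Pearson's correlation over the 6 columns, the nearest pair was another one for every gene, with 1 shared identifier for fea3 and 0 for the others. By distance after rescaling to an equal total over gene models, kn1 and fea3 kept 2 identifiers, ct2 kept 1, and td1, fea2 and fea4 kept 0.

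Of the other genes of these pathways, 47 symbols were looked up, among them further KNOX genes, WUSCHEL and CLE peptide genes, receptors and G protein subunits. The RefSeq gene table knew 26 of them, but 0 could be paired with an identifier of the deposited table, so none has a value here. The genes of 3 microRNA families that act at the shoot apex are listed by name: MIR164, which limits NAC genes of organ boundaries, MIR166, which limits class III homeodomain-leucine zipper genes, and MIR394, which acts in the shoot meristem of Arabidopsis. In these polyA libraries the values describe precursor transcripts, not mature microRNAs. Of 19 such genes, 9 were listed at 0 in all columns. In roots 4 could be compared and 1, MIR166d, was at least 2-fold higher in EBL, where 20.6% of miRNA genes compared were. In shoots 8 could be compared, of which MIR166d and MIR394b were at least 2-fold higher, beside 17.0% of miRNA genes, and 1, MIR166a, was lower, beside 14.9%, at 5.25 RPKM in control and 2.11 in EBL. In leaves 5 could be compared and 1 was at least 2-fold higher, MIR164d, beside 18.4% of miRNA genes, and its control value of 0.000635 RPKM can be a failed estimate like a 0. Counts this small were not read against those shares.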

How the data were processed

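PolyA RNA was sequenced from stranded libraries, per the labels' protocols. The authors deposited 1 table of RPKM values, with 1 column per organ and treatment, and the sources used here do not say how the 3 replicates of a group were combined. Per the submitters' processing notes, which state no roles, the software was Cufflinks 2.2.1, TopHat2 2.0.13, Trimmomatic 0.33 and CASAVA 1.8, and the genome build was B73 RefGen_v4. The members and lists were chosen with earlier results of these data known.

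Gene models entered a comparison when at least 1 of all columns reached 1 RPKM and neither column compared was 0, and a pseudocount of 1 was added. All 6 genes met the minimum, kn1 through its shoot columns alone and fea4 through its EBL root column alone. fea4 was left out where its control leaf value was needed. Named besides them were the 2 gene models nearest to each by centred distance. RPKM gives no depth, so no interval or floor was computed. Alternatives were pseudocounts of 0.1 and 2, no minimum, a minimum mean of 5 RPKM, and scaling by median ratios, by quantiles or to an equal total over gene models. Added after seeing the data were plain ratios with no pseudocount, ratios between 2 of the genes within a column, and medians without fea4. Symbols were looked up in the RefSeq gene table for Zm-B73-REFERENCE-NAM-5.0, another build, so no coordinates are printed. Software here was matplotlib 3.10.9, scipy 1.17.1, pandas 2.3.3, numpy 2.4.6 and Python 3.11.15.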

Additional observations from a re-analysis of the deposited data

How the results depend on the processing

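No paired analysis was possible because the table holds 1 value per group, which carries no replicate number; this concerns pairs of replicates, while organs were paired in the sign-flip test. For the same reason no replicate could be left out. The EBL effect on fea3 in leaves, the only one past 2-fold, was under it with a pseudocount of 2 and after rescaling to an equal total over gene models, which left 0 genes called in leaves. Without a pseudocount 2 genes were called in leaves, fea3 and kn1, and 1 in roots, fea4, both added ones from values of at most 1.03 RPKM. In shoots 0 were called under every setting. For shoots against leaves in EBL columns 5 genes were called, and 6, with fea4 added, with a pseudocount of 0.1 or none. The number was 4 with a pseudocount of 2 or after rescaling to an equal total. It was 3 after median-ratio or quantile scaling or with a minimum mean of 5 RPKM. For roots against leaves in control columns 2 were called, and 3, with kn1 added from values of at most 0.302 RPKM, with a pseudocount of 0.1 or none. The number was 1 with a pseudocount of 2 or that minimum mean, and 0 after median-ratio or quantile scaling. In the EBL columns 2 were called, 4 with a pseudocount of 0.1 or none, and 1 with a pseudocount of 2 or the minimum mean (ct2, higher in roots) or quantile scaling (fea3, lower in roots). After median-ratio scaling the number was 2 again, but with td1 and fea3, lower in roots, in place of fea2 and ct2. Shares of all gene models called were computed only for the setting used in the Results. Counts under the other settings therefore stand without a share. The median over all gene models for shoots against leaves in EBL columns was 0.49 as deposited and -0.06 after median-ratio scaling. The mean effect of EBL on kn1 over the organs was 0.14 without a pseudocount, against -0.17, through the leaf value. The excess of kn1 and fea3 in shoots passed 2-fold in the comparisons with roots and with leaves under every setting; kn1 was left out of the EBL columns by the minimum mean. The depth behind each value is unknown, which limits kn1 in roots and leaves and fea4 throughout.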
